A study of Mus musculus with 8 samples.

Results

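*Ccl2*, *Ccl3*, *Ccl4*, *Ccl5*, *Ccl6*, *Ccl7*, *Ccl8* and *Ccl9* encode CC chemokines, and their RNA was examined in hematopoietic progenitors of the mouse with and without *Pcgf1*. These 8 genes, of 23284 gene symbols in the tables, were chosen by symbol, on the values of the IdHPC comparison, in which *Ccl9* and *Ccl2* had stood among the largest rises. The IdHPC values below are therefore a description of the genes and not a test of them. Poly(A) RNA was sequenced from 8 libraries, with 2 control and 2 *Pcgf1*-KO libraries for each of 2 cell types.

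IdHPCs are progenitors established from the Lin-Sca-1+c-Kit+ bone marrow fraction of mice with the genotype ERT2-Cre:*Pcgf1* fl/fl, with a virus for human Id3, and they are propagated on TSt-4 stromal feeder cells with IL-7, SCF and Flt3 ligand. In the *Pcgf1*-KO IdHPCs exons 2 to 7 of *Pcgf1* were removed by 4-hydroxytamoxifen (4-OHT), and ethanol stood in for the drug in control IdHPCs of another experiment of the study. The treatment of the control IdHPCs behind these libraries is not given in the sources used here. LMPPs, lymphoid-primed multipotent progenitors, were sorted from bone marrow of *Pcgf1* fl/fl mice (control) or ERT2-Cre:*Pcgf1* fl/fl mice (*Pcgf1*-KO), and both were kept with 4-OHT on the same feeders and cytokines. The labels give the genotypes as *Pcgf1* fl/fl and *Pcgf1* -/-, and they give the strain B6CBAF1/J and a passage of 15 to 18 for all 8 libraries. The study describes the replicates of both cell types as biologically independent, the labels name no cultures or animals, and the p-values below measure the spread between libraries. No source states whether feeders were removed before the RNA was taken.

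The libraries held between 13209167 and 34898845 reads over all listed exons, and between 9618849 and 25302206 with repeated exons counted once. Each read was worth between 0.0287 and 0.0757 CPM (reads scaled to a fixed library total by the authors). *Pcgf1* itself was checked on the exons that the deletion removes. In IdHPCs control 1 and control 2 had 193 and 173 reads on them, and each *Pcgf1*-KO library had 15. In LMPPs they held 84 reads in the library labelled control 1, 76 in that labelled *Pcgf1*-KO 1, 0 in that labelled control 2 and 0 in that labelled *Pcgf1*-KO 2. The reads thus went against the labels of the LMPP libraries labelled control 2 and *Pcgf1*-KO 1. LMPP values are accordingly given for each library, and the comparison of LMPPs follows the labels alone. The 2 tables were normalized separately by the authors, and levels were tested within a table only.

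CC chemokines are small secreted proteins, named for a pair of adjacent cysteines, which attract leukocytes through G protein-coupled receptors. The monocyte chemoattractants CCL2 and CCL7 act on monocytes, with CCR2 as their main receptor. CCL9 and CCL6 are related rodent chemokines that signal through CCR1. CCL3, CCL4 and CCL5 form the inflammatory group, with CCR1 as a receptor of CCL3 and CCL5. Macrophages, activated lymphocytes and stromal cells are common sources of these proteins, and myeloid progenitors are known to transcribe *Ccl9* and *Ccl3*.

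The 8 genes lie in 2 groups on chromosome 11 (mm9, as in the NCBIM37 annotation). *Ccl2* (chr11:81849073-81850955), *Ccl7* (chr11:81859214-81861027) and *Ccl8* (chr11:81928687-81930301) follow each other on the plus strand. *Ccl5* (chr11:83339280-83344020), *Ccl9* (chr11:83386421-83392138), *Ccl6* (chr11:83401384-83406589) and *Ccl3* (chr11:83461346-83462857) lie on the minus strand, and *Ccl4* (chr11:83476086-83478185) lies beside them on the plus strand. The start coordinate of *Ccl7* lies 8259 bases past the end of *Ccl2*, and that of *Ccl6* lies 9246 bases past the end of *Ccl9*. The annotated transcripts have 3 exons, apart from *Ccl9* and *Ccl6* with 4.

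The RefSeq promoter table (GRCm38.p6, 250 bases before to 50 bases after the start site) held 4 of the 8 genes, *Ccl3*, *Ccl6*, *Ccl8* and *Ccl9*. The promoter of *Ccl9* is shown because this gene was the most abundant of the 8 in LMPPs and was higher in *Pcgf1*-KO IdHPCs. That of *Ccl3* is shown as the other gene above 1 CPM in each of the 8 libraries. Capitals mark matches on either strand to 1 of 5 motifs. These were the box with the letters TATAAA, called TATA here, and the motifs of the factors NF-kappa B (kappa B, GGANTTTCC), C/EBP (TTGCNNAA) and IRF (AANTGAAA). The last was the motif of AP-1, written TGANTCA.
*Ccl9* promoter, chr11:83578587-83578886, minus strand: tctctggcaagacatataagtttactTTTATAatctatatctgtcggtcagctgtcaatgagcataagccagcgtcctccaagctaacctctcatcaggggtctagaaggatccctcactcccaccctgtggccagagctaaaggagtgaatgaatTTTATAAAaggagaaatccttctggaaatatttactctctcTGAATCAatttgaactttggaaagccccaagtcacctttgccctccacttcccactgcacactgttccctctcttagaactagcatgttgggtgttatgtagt
*Ccl3* promoter, chr11:83649329-83649628, minus strand: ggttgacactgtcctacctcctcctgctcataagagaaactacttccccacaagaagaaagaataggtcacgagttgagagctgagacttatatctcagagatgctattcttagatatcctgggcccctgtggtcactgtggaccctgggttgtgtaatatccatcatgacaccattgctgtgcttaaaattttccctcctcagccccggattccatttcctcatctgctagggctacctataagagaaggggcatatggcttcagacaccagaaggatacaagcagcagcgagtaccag

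The *Ccl9* window held 1 AP-1 match, which began 53 bases before the start site, and 3 TATA matches beginning 224, 94 and 92 bases before it, the last 2 of which overlap on opposite strands. The *Ccl3* and *Ccl6* windows held none of the 5 motifs. In the *Ccl8* window stood 1 IRF match, 79 bases before the start site, and 1 TATA match, 32 bases before it. Of the 32851 promoters in the table, 7.81% held an AP-1 match, 13.6% a TATA match, 6.58% an IRF match, 10.8% a C/EBP match and 1.25% a kappa B match. The 4 chemokine promoters held 3 (*Ccl3*) or 2 (*Ccl6*, *Ccl8*, *Ccl9*) CG dinucleotides, against a median of 7 over the table, and 23.3% of all promoters held 2 or fewer.

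Adjacent *Ccl6* and *Ccl9* shared sequence near their start sites. The stretch of 40 bases without gaps in which the promoters of *Ccl6* and *Ccl9* were most alike had 36 identical bases, whereas the best stretch in each of the other 5 pairs of promoters had between 20 and 23. It begins 25 bases before the start site of *Ccl6* and 9 bases after that of *Ccl9*, and capitals mark the bases that differ.
*Ccl6*: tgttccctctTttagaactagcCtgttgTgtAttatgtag
*Ccl9*: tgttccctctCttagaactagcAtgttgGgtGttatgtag
In their transcripts these genes shared a run of at most 25 bases, the longest of the 28 pairs, and *Ccl2* and *Ccl7* a run of 23 bases.

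In IdHPCs the monocyte chemoattractant *Ccl2* stood at 2.76 CPM in control 1, 1.38 CPM in control 2, 13.5 CPM in *Pcgf1*-KO 1 and 10.1 CPM in *Pcgf1*-KO 2. Both *Pcgf1*-KO libraries were above both controls, and the mean was 2.07 ± 0.98 CPM in the controls and 11.8 ± 2.38 CPM in the *Pcgf1*-KO (SD, n = 2), a ratio of 5.71. On the log2(CPM + 1) scale, which understates the change of low genes, the difference was 2.09 (standard error 0.32). *Ccl7*, its neighbor on the chromosome and another ligand of CCR2, stood at 1.19 CPM in control 1, 1.72 CPM in control 2, 6.67 CPM in *Pcgf1*-KO 1 and 6.78 CPM in *Pcgf1*-KO 2. The groups did not overlap for *Ccl7* either, with a ratio of means of 4.62 and a log2 difference of 1.66 (standard error 0.29). *Ccl8*, the remaining gene of this chromosomal group, had 0 reads in each of the 8 libraries, where 3 reads would be worth between 0.086 and 0.227 CPM. *Ccl11* (eotaxin) and *Ccl12* lie between *Ccl7* and *Ccl8*, and they belong to the other CC ligands counted below.

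*Ccl9*, the CCR1 ligand also called MIP-1 gamma, had 110 and 89 reads in the control IdHPCs, or 3.37 and 2.55 CPM. *Pcgf1*-KO 1 and *Pcgf1*-KO 2 had 404 and 375 reads, or 14.2 and 17.6 CPM. The ratio of the means was 5.38, close to that of *Ccl2*, and the log2 difference was 2.095 (standard error 0.28). The Poisson 95% intervals were 2.77 to 4.06 and 2.05 to 3.14 CPM in the controls. In the *Pcgf1*-KO libraries they were 12.8 to 15.6 and 15.9 to 19.5 CPM. These intervals leave out the spread between libraries, and the gene was chosen on this contrast. They are also too narrow where reads are copies of 1 molecule, which no molecular identifier marks, or were counted on several exons. *Ccl6*, which is related to *Ccl9* and adjacent to it, had 2, 0, 0 and 6 reads in control 1, control 2, *Pcgf1*-KO 1 and *Pcgf1*-KO 2, so that no difference was detectable at this depth.

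**Figure D1:**
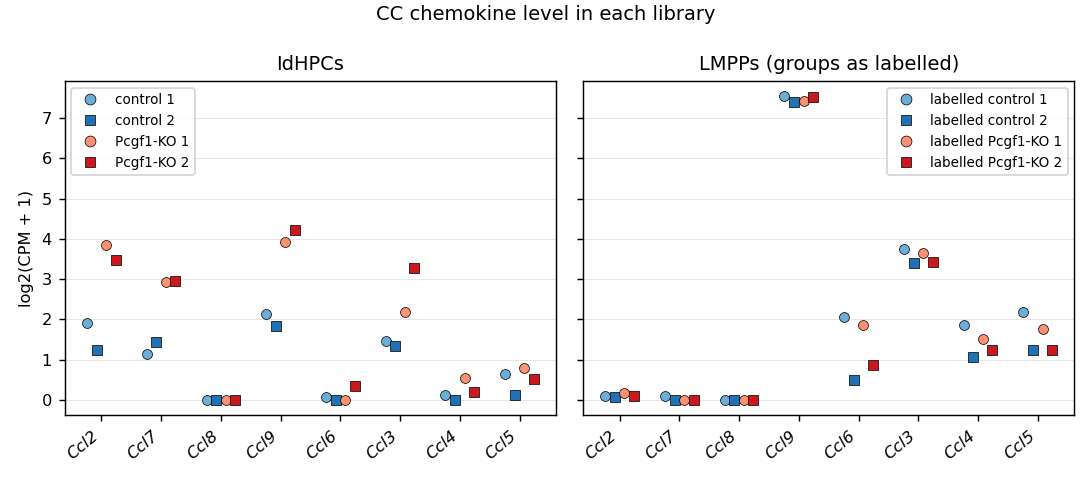
Level of each CC chemokine as log2(CPM + 1) (y axis) in the 4 IdHPC libraries (left) and the 4 LMPP libraries (right), with 1 point for each library and blue for control and red for *Pcgf1*-KO as labelled. *Ccl2*, *Ccl7*, *Ccl9* and *Ccl3* lie higher in both *Pcgf1*-KO IdHPC libraries than in both controls, and the 4 LMPP libraries lie together for *Ccl9*, between 166 and 185 CPM.

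Of the inflammatory group, *Ccl3* (MIP-1 alpha) was at 1.78 and 1.52 CPM in control IdHPCs and at 3.58 and 8.66 CPM in *Pcgf1*-KO IdHPCs. The *Pcgf1*-KO libraries were again above the controls but differed from each other more than for *Ccl2*, *Ccl7* or *Ccl9*. The log2 difference of 1.33 (standard error 0.37) became 0.79 without *Pcgf1*-KO 2 and 1.87 without *Pcgf1*-KO 1. *Ccl4* (MIP-1 beta), with 3, 0, 13 and 3 reads in the same order of libraries, and *Ccl5* (RANTES), with 18, 3, 21 and 9 reads, stayed under 1 CPM in the 4 IdHPC libraries. The groups overlapped for *Ccl5*, and the lower *Pcgf1*-KO library of *Ccl4* held as few reads as control 1.

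Together the 8 genes summed to 9.8 and 7.25 CPM in control IdHPCs, and to 39.1 and 44.0 CPM after *Pcgf1* was deleted. *Ccl9* made up between 34.4% and 40.1% of that sum in each of the 4 libraries. Divided by the exon length of the annotated transcript, the order in the *Pcgf1*-KO libraries was *Ccl2* (mean 14.5 CPM per kb), *Ccl7* (8.39), *Ccl3* (7.99), *Ccl9* (5.29) and *Ccl5* (1.09). The libraries of *Ccl7* and *Ccl3* overlapped, as did those of *Ccl3* and *Ccl9*, and *Ccl2* stood apart from *Ccl7*. In the controls the libraries of *Ccl2* (mean 2.54 CPM per kb) overlapped with those of *Ccl3* (2.15), and those of *Ccl3* with those of *Ccl7* (1.82), whereas *Ccl9* followed at 0.984 CPM per kb and stood apart from *Ccl7*. *Ccl9* has the longest transcript of the 8, 3006 bases, and without division by length it stood first in both groups.

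Over all genes the low-value filter, which asked for 1 CPM or more in any 1 library of the table, left 12273 genes in IdHPCs, and 4 of the 8 chemokines passed it. The fit was limma on log2(CPM + 1) with Benjamini-Hochberg adjustment. It called 33 genes higher (0.269%) and 32 lower (0.261%) in *Pcgf1*-KO IdHPCs, at an adjusted p under 0.05. *Ccl2*, *Ccl7* and *Ccl9* were among the 33, which is how such genes came to be examined and is not a result about the group. The median log2 difference of the 4 chemokines was 1.87, against 0.0056 over all genes tested. The genes were chosen on this contrast, so the first median is a description only. Each of the 4 reached 1 CPM in both controls as well. All 4 had both *Pcgf1*-KO libraries above both controls, as had 25.6% of all genes tested, while 21.3% of all genes had both below. Without control 2 none of the 4 chemokines and 0 genes in all were called higher, and without control 1 the call of *Ccl7* was lost. Leaving out any 1 library kept the log2 differences between 1.76 and 2.42 for *Ccl2*, between 1.95 and 2.24 for *Ccl9* and between 1.51 and 1.82 for *Ccl7*.

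The exons of each gene add up to the IdHPC values on which the genes were chosen, so the levels of single exons are a description only. Exon 1 of *Ccl2* had 4.58 and 3.09 CPM per kb in control against 25.0 and 19.7 CPM per kb in *Pcgf1*-KO IdHPCs, and exon 3, which ends the transcript, had 2.55 and 1.3 against 10.6 and 8.2 CPM per kb. Exon 1 of *Ccl9* had 2.22 and 1.62 against 8.35 and 8.16 CPM per kb, and exon 4 had 0.737 and 0.723 against 3.53 and 4.62 CPM per kb. In LMPPs exon 2 of *Ccl9*, 72 bases long, had between 242 and 271 CPM per kb, and exon 4, 2577 bases long, between 40.8 and 48.1 CPM per kb. Whether a read that spans exons was counted on each of them is not given in the sources used here.

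**Figure D2:**
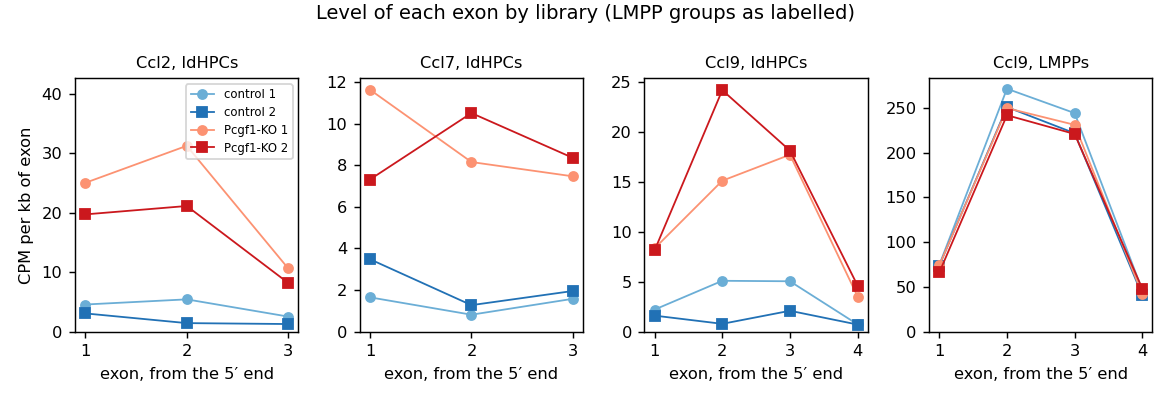
Level of each exon in CPM per kb of exon (y axis, starting at 0) by exon number from the 5′ end (x axis), with 1 line for each library, for *Ccl2*, *Ccl7* and *Ccl9* in IdHPCs and *Ccl9* in LMPPs. Red lines (*Pcgf1*-KO) run above blue lines (control) at every exon in IdHPCs, and in LMPPs the 4 lines nearly coincide.

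Markers of stromal cells were abundant in the IdHPC libraries, and most had higher values where the chemokines did. Of 20 stromal markers 18 passed the filter in IdHPCs, 15 had both *Pcgf1*-KO libraries above both controls (25.6% of all genes tested), and 1 had both below (21.3%). The collagen gene *Col1a2* and *Sparc*, which encodes a matrix glycoprotein, were called higher by limma, and none was called lower, beside 0.269% and 0.261% of all genes. At an unadjusted p under 0.05 limma had 14 markers higher and 1 lower (*Ctgf*), against 9.17% of all genes higher and 5.33% lower. On the recovered reads edgeR's quasi-likelihood test called 2 markers higher and 1 lower, against 0.627% and 0.383% of all genes. DESeq2 called 9 markers higher and 1 lower, against 2.92% and 1.3% of the 11797 genes to which it gave an adjusted p, and edgeR's exactTest also called 9 higher and 1 lower, against 3.67% and 1.3% of all genes. *Col1a1*, the most abundant of the list, had 1131 and 1100 CPM in control against 2185 and 2386 CPM in *Pcgf1*-KO IdHPCs. *Fn1*, fibronectin, had 740 and 688 CPM against 1476 and 819 CPM. *Lum* and *Dcn*, defining genes of many fibroblasts, had 0 reads. The list summed to 4453 and 3859 CPM in control against 8440 and 6628 CPM in *Pcgf1*-KO IdHPCs, a ratio of means of 1.81. In bulk RNA, a change in the number of cells of a type and a change in RNA per cell cannot be told apart.

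For each 1000 CPM of summed stromal markers, *Ccl2* stood at 0.619 and 0.356 CPM in control against 1.6 and 1.53 CPM in *Pcgf1*-KO IdHPCs. *Ccl9* stood at 0.756 and 0.661 CPM against 1.68 and 2.66 CPM on the same scale, and *Ccl7* at 0.268 and 0.445 CPM against 0.79 and 1.02 CPM. *Ccl3* stood at 0.399 and 0.393 CPM against 0.424 and 1.31 CPM. The ratios of means on this scale were 3.2 (*Ccl2*), 3.06 (*Ccl9*), 2.54 (*Ccl7*) and 2.18 (*Ccl3*), for genes chosen on their values in these libraries. *Cxcl12*, the CXCR4 ligand made by marrow stroma, had 134 and 64.3 CPM against 545 and 224 CPM, a log2 difference of 1.90 (adjusted p = 0.0711 from limma, 0.0447 from edgeR's quasi-likelihood test). For each 1000 CPM of stromal markers it stood at 30.1 and 16.7 CPM in control against 64.6 and 33.8 CPM, a ratio of means of 2.11. On the same scale the ratio was 1.14 for *Csf1*, the macrophage growth factor of the list of inducers, with 6.92 and 5.38 CPM against 7.6 and 6.4 CPM. Its groups overlapped, and it was singled out after its values were seen. The part of stromal RNA in the chemokine differences was not tested.

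**Figure D3:**
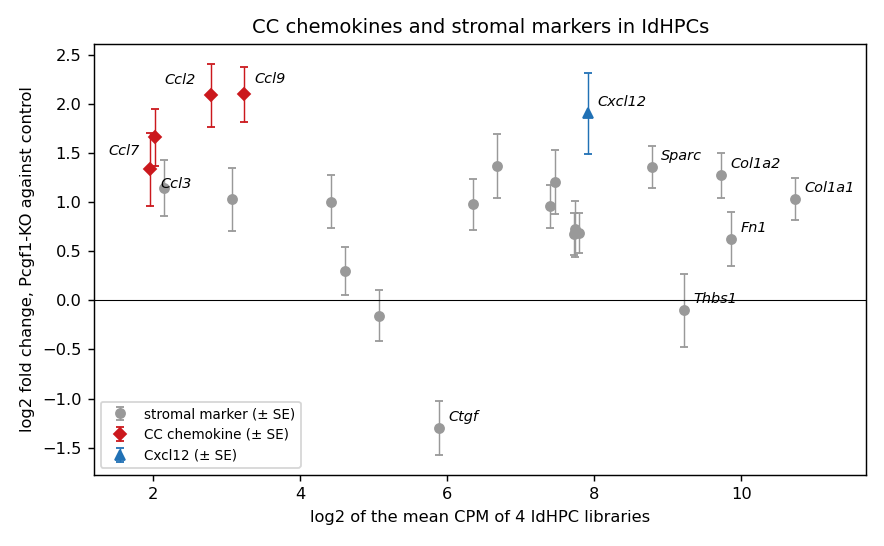
Log2 fold change, *Pcgf1*-KO against control, in IdHPCs (y axis, error bars are the standard error, 2 libraries against 2) by the log2 of the mean CPM of the 4 libraries (x axis), for 4 CC chemokines (red), 18 stromal markers (gray) and *Cxcl12* (blue). *Ccl2* and *Ccl9*, which were chosen on this contrast, lie at 2.09 and 2.095, *Cxcl12* at 1.90, *Sparc* at 1.36 and *Col1a2* at 1.27.

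Markers of other cells that make CC chemokines were scarce in IdHPCs. The 15 macrophage markers summed to between 13.3 and 22.0 CPM in the 4 libraries, with 6 past the filter, 4 at 0 reads throughout and none called by limma. The 11 granulocyte-lineage markers summed to between 0.745 and 4.003 CPM, the 6 of mast cells and basophils to between 0.0612 and 0.188 CPM, and the 6 of dendritic cells to between 1.72 and 4.75 CPM. Those of T and NK cells, 10 in number, summed to between 17.4 and 20.6 CPM. *Nkg7* held between 16.2 and 19.0 CPM of this, and the other 9 stayed under 1 CPM. The list of 8 progenitor markers held *Cd34*, *Flt3*, *Kit*, *Ly6a*, *Ptprc*, *Il7r*, *Dntt* and *Id3*, of which *Ptprc* and *Id3* are not particular to progenitors. All 8 were detected and summed to between 1006 and 1314 CPM, with none called by limma in either direction. At an unadjusted p under 0.05 limma had 1 macrophage marker higher (*Lyz2*) and 1 lower (*Itgam*). It had 1 granulocyte-lineage marker higher (*Mpo*), 1 dendritic cell marker lower (*Siglech*), and 2 progenitor markers higher (*Cd34*, *Ly6a*) and 1 lower (*Ptprc*), beside the 9.17% higher and 5.33% lower of all genes. On the recovered reads DESeq2 and exactTest each called *Cd34* and *Ly6a* higher and *Siglech* lower, exactTest also called *Lyz2* higher, and the quasi-likelihood test called none of these markers. Of all genes DESeq2 called 2.92% higher and 1.3% lower, exactTest 3.67% and 1.3%, and the quasi-likelihood test 0.627% and 0.383%. These marker genes were named after their values were seen, as were *Sparc*, *Ctgf*, *Lum*, *Dcn*, *Pdgfrb* and *Thbs1*. The part of these cells in the chemokine differences was not tested.

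In LMPPs the pattern of the family was another one. *Ccl9* was the most abundant of the 8 genes, with 185 CPM in the library labelled control 1, 166 CPM in that labelled control 2, 170 CPM in that labelled *Pcgf1*-KO 1 and 182 CPM in that labelled *Pcgf1*-KO 2. These values rest on between 2404 and 2882 reads a library. *Ccl9* made up between 89.4% and 93.1% of the summed CPM of the 8 genes, a share not divided by length, and its transcript is the longest. The groups overlapped. By label the log2 difference was 0.01 (standard error 0.12, adjusted p = 0.99997 from limma). Stromal markers were near 0 in the same libraries, in which *Col1a1* had at most 0.23 CPM, *Sparc* at most 0.48 CPM, and *Lum* and *Dcn* 0 reads. Of the 20 stromal markers 15 stayed under 1 CPM in the 4 LMPP libraries, and *Pdgfrb* (35.1 to 56.8 CPM) and *Thbs1* (27.4 to 39.7 CPM) carried most of their sum of 65.8 to 102 CPM. Some markers of other cells were present in LMPPs. Those of the granulocyte lineage summed to between 2410 and 2651 CPM, of which *Mpo* held between 1874 and 1996 CPM. Those of macrophages summed to between 139 and 324 CPM, and of mast cells and basophils to between 41.6 and 62.4 CPM. Those of T and NK cells summed to between 16.8 and 51.1 CPM, and of dendritic cells to between 92.8 and 102 CPM. In this order of lists, 6 of 11, 9 of 15, 3 of 6, 7 of 10 and 3 of 6 markers stayed under 1 CPM in the 4 LMPP libraries. The progenitor markers summed to between 1838 and 1875 CPM, and the part of these cells in the level of *Ccl9* was not tested.

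The CCR2 ligands were nearly absent from LMPPs. *Ccl2* had 1, 1, 2 and 1 reads in the libraries labelled control 1, control 2, *Pcgf1*-KO 1 and *Pcgf1*-KO 2, and *Ccl7* had 1 read in that labelled control 1 and 0 in the other three. *Ccl2* and *Ccl7* therefore did not pass the filter in LMPPs, and no difference was detectable at this depth. Set beside IdHPCs, in tables that were normalized separately, *Ccl2* and *Ccl7* were the members with reads in IdHPCs and next to none in LMPPs, and *Ccl9* and *Ccl3* the members above 1 CPM in every library of both.

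*Ccl3* was the second gene of the family in LMPPs, at 12.3, 9.61, 11.5 and 9.77 CPM in the libraries labelled control 1, control 2, *Pcgf1*-KO 1 and *Pcgf1*-KO 2. In the same order *Ccl4* had 2.65, 1.09, 1.85 and 1.36 CPM and *Ccl5* had 3.54, 1.38, 2.4 and 1.36 CPM. *Ccl6* had 3.17, 0.403, 2.61 and 0.833 CPM, from 43, 7, 38 and 11 reads. For each of *Ccl3*, *Ccl4*, *Ccl5* and *Ccl6* both libraries numbered 1 were above both libraries numbered 2, as were 29.9% of all genes tested, while 26.7% had both below. The libraries of *Ccl9* did not separate by number, and the gap was widest for *Ccl6*. The libraries numbered 1 are those with reads on *Pcgf1* exons 2 to 7, and those numbered 2 had none. Replicate number and the state of *Pcgf1* cannot be told apart here, and no mean or test was made over that split.

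Per kb of exon the order in the LMPP libraries labelled control was *Ccl9* (58.3 CPM per kb), *Ccl3* (14.3), *Ccl5* (4.62), *Ccl4* (2.84) and *Ccl6* (1.24), and it was the same in those labelled *Pcgf1*-KO. *Ccl9* stood apart from *Ccl3*, and *Ccl3* from *Ccl5*. The libraries of *Ccl5* and *Ccl4* overlapped.

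By label, 5 of the 8 genes were tested in LMPPs among 12153 genes. None of the 5 was called, and limma called 0 genes higher (0%) and 0 lower (0%), with 2 higher (0.0165%) and 0 lower (0%) at an unadjusted p under 0.05. DESeq2 and both edgeR tests also called 0 in each direction. The log2 differences of the 5 lay between -0.21 (*Ccl5*, standard error 0.41) and 0.09 (*Ccl6*, standard error 0.61), each with an adjusted p of 0.99997 from limma. Both libraries labelled *Pcgf1*-KO lay above both labelled control for 5.92% of all genes and below for 6.3%, and for none of the 5 chemokines. With 2 of the 4 libraries at odds with their label, this comparison does not set *Pcgf1*-deficient against *Pcgf1*-sufficient LMPPs.

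The receptors of the chemokines stood at other levels in the LMPP table than in the IdHPC table, which were normalized separately. *Ccr2*, the receptor of CCL2 and CCL7, had 2.88 and 1.23 CPM in control IdHPCs and 3.65 and 2.49 CPM in *Pcgf1*-KO IdHPCs, and between 224 and 278 CPM in LMPPs. *Ccr1*, a receptor of CCL9, CCL6, CCL3 and CCL5, had 0 reads in the IdHPC libraries and between 3.33 and 9.07 CPM in LMPPs. *Ccr3*, the eotaxin receptor, had 0 reads in IdHPCs and at most 0.147 CPM in LMPPs. Thus in IdHPCs, reads of the ligands *Ccl9* and *Ccl2* stood beside 0 reads of *Ccr1* and a low level of *Ccr2*, and in LMPPs *Ccl9* stood beside reads of *Ccr1*.

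**Figure D4:**
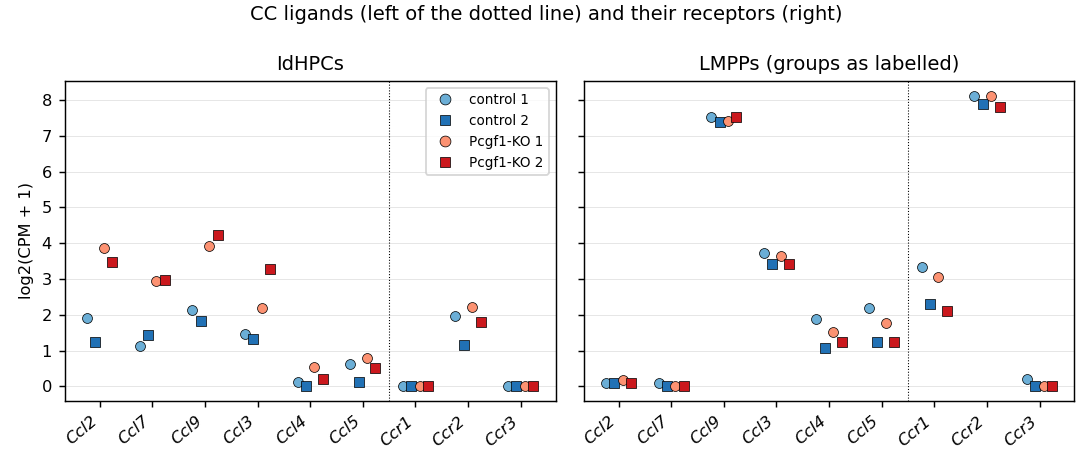
Level of 6 CC ligands and of the receptors *Ccr1*, *Ccr2* and *Ccr3* as log2(CPM + 1) (y axis) in the 4 IdHPC libraries (left) and 4 LMPP libraries (right), 1 point for each library. *Ccr2* lies between 224 and 278 CPM in LMPPs, where its ligands *Ccl2* and *Ccl7* are near 0, and *Ccr1* has no reads in IdHPCs.

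Of the 16 CC and atypical chemokine receptors listed, 4 passed the filter in IdHPCs and 8 in LMPPs, and limma called none in either. DESeq2 and edgeR's exactTest each called 1 higher (*Ccr9*) and 1 lower (*Ccr7*) in IdHPCs, beside the shares of all genes given for each tool above, the quasi-likelihood test called 0, and none was called in LMPPs. *Ccr7*, the lymph node homing receptor, had the highest mean over the 4 IdHPC libraries, with 17.3 and 9.17 CPM in control against 5.69 and 5.46 CPM in *Pcgf1*-KO IdHPCs (log2 difference -1.05, adjusted p = 0.165 from limma). *Ccr9*, the gut and thymus homing receptor of CCL25, was singled out after its values were seen. In the *Pcgf1*-KO libraries it stood above *Ccr7*, with 1.96 and 3.75 CPM in control against 7.8 and 13.4 CPM (log2 difference 1.59, adjusted p = 0.073 from limma). Of the 16 other CC ligands, 1 passed the filter in IdHPCs and 2 in LMPPs, with none called by limma, edgeR or DESeq2, and none at an unadjusted p under 0.05 from limma. *Ccl25*, the CCR9 ligand, had the highest mean of them in each table, at 1.84 and 2.46 CPM in control and 3.62 and 2.26 CPM in *Pcgf1*-KO IdHPCs, and between 1.36 and 3.84 CPM in LMPPs. Of the other 16 CC genes, 10 had 0 reads in the IdHPC libraries and 6 in the LMPP libraries.

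Among 17 chemokines of the CXC, CX3C and XC classes, 5 passed the filter in IdHPCs, 4 of them with both *Pcgf1*-KO libraries above both controls against 25.6% of all genes, and limma called none, with 3 higher at an unadjusted p under 0.05 against 9.17% of all genes. *Cxcl12*, given above, was the most abundant. The quasi-likelihood test called it alone, exactTest called it and *Cx3cl1*, and DESeq2 called 0, against 0.627%, 3.67% and 2.92% of all genes called higher by these tools. In LMPPs 3 passed and none was called by any of these tests. *Pf4*, the platelet factor of megakaryocytes, was the most abundant there, at 35.9, 66.6, 28.3 and 84.3 CPM in the libraries labelled control 1, control 2, *Pcgf1*-KO 1 and *Pcgf1*-KO 2. Both libraries numbered 2 were above both numbered 1 for *Pf4*, the opposite of the order for *Ccl6*.

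Genes of the pathways known to induce CC chemokines were a further list of 26, with NF-kappa B subunits and inhibitors, C/EBP and IRF factors, and the cytokines TNF, IL-1 and CSF1. Of these, 21 were tested in IdHPCs and 20 in LMPPs, and limma called none in either. At an unadjusted p under 0.05, 1 was higher (*Csf1*) and 1 lower (*Irf8*) in IdHPCs, against 9.17% and 5.33% of all genes, and both were genes that DESeq2 and exactTest called, beside the shares of all genes given for these tools above, and the quasi-likelihood test did not. *Nfkb1*, the p105 subunit of NF-kappa B, was the most abundant in IdHPCs, with 145 and 162 CPM in control against 148 and 124 CPM in *Pcgf1*-KO IdHPCs (log2 difference -0.18, adjusted p = 0.73 from limma). *Irf8*, a factor of monocyte and dendritic cell development, was the most abundant in LMPPs, with 545, 355, 557 and 338 CPM in the libraries labelled control 1, control 2, *Pcgf1*-KO 1 and *Pcgf1*-KO 2. The median log2 difference of the list in IdHPCs was 0.0335, against 0.0056 over all genes tested.

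The genes whose profile over the 8 libraries was closest to that of *Ccl2* were *Ngfr*, *Mgp* and *Foxd1*. Likeness was measured over 12273 genes as the Euclidean distance between log2(CPM + 1) profiles, centered within each table, and it was 0.292, 0.308 and 0.558 for these genes. *Ngfr*, the low-affinity neurotrophin receptor, had 15.9 and 7.88 CPM in control and 55.9 and 50.5 CPM in *Pcgf1*-KO IdHPCs and at most 0.0757 CPM in LMPPs. *Mgp*, matrix Gla protein, had 4.16 and 1.66 CPM against 15.3 and 11.01 CPM, and at most 0.275 CPM in LMPPs. *Foxd1* encodes a forkhead transcription factor and had 4.04 and 1.46 CPM against 13.1 and 7.95 CPM. For *Ccl9* the closest were *Ngfr* (0.557), *Ccl2* (0.568) and *Rpl39l* (0.599), none of which shared its level in LMPPs, since centering removes the level.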

How the data were processed

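The tables hold CPM values for 4 IdHPC and 4 LMPP libraries. As the methods describe, the authors used HISAT2 (alignment to mm9), Rsubread (counting) and edgeR (CPM, as deposited), whereas the submitters' processing notes name TopHat2 2.0.13. The tables list 284716 exons, 23284 symbols. Of 220394 exons with reads, 58624 (26.6%) repeated the values of the exon before them and were counted once. Exons were then summed per symbol, the authors' CPM denominator being kept. Values in CPM were whole reads throughout (100%, tolerance 1e-06 reads), which gave back the reads. An annotation and the counting of reads over several exons are not given in the sources used here. The kit does not mark strand.

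Genes that reached 1 CPM in any library of a table were tested with limma 3.58.1 in R 4.3.3 (log2(CPM + 1), empirical Bayes with trend, Benjamini-Hochberg adjustment, threshold 0.05). A gene table, not exons, had been assumed. The tests were checked on simulated data. Count tests on recovered reads (edgeR 4.0.16, DESeq2 1.42.0), filters, pseudocounts, scalings and left-out libraries were alternatives. Exon lengths come from NCBIM37 (mm9), promoters from RefSeq (GRCm38.p6), and coordinates of the builds were not converted. 6 listed genes were matched through an older symbol.

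The 8 genes and the lists were chosen with earlier results of these data known. By rule the text names the 8 genes, the receptors *Ccr1*, *Ccr2* and *Ccr3*, any gene of the ligand, receptor and inducer lists that limma called, the gene with the highest mean CPM of each of these lists, the 2 most abundant stromal markers, and the 3 closest profiles of *Ccl2* and *Ccl9*. Other genes were named after their values were seen. A further item of the rule is not reported here.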

Additional observations from a re-analysis of the deposited data

How the results depend on the processing

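The log2 differences of *Ccl2*, *Ccl3*, *Ccl7* and *Ccl9* in IdHPCs kept their sign under every alternative run, but the calls and the number of genes called did not. Of the 4 chemokines 3 were called under limma as described, 4 with DESeq2 or edgeR's exactTest, 2 when all listed exons were summed and 0 without the filter on low values. Against 33 genes called higher, there were 344 with DESeq2, 451 with exactTest, 77 with edgeR's quasi-likelihood test, 19 with all listed exons, 3 without a filter and between 0 and 237 with 1 library left out. Against 32 called lower, there were 153 with DESeq2, 159 with exactTest, 1 without a filter and between 14 and 581 with 1 library left out. The causes of these changes were not tested. Without the exon at the 3′ end, an alternative chosen after seeing the data, the log2 differences were 1.94 (*Ccl2*), 0.94 (*Ccl3*), 1.21 (*Ccl7*) and 1.65 (*Ccl9*). Division by length moved *Ccl9* from place 1 to place 4 among the 8 genes in IdHPCs.

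With the replicate number as a term (replicate block), 484 genes were called higher and 185 lower in IdHPCs, with all 4 chemokines among the former, and 3 higher in LMPPs by label. The labels do not say that equal numbers mark paired libraries. The deviations of same-numbered libraries from their group means correlated across genes at 0.147 in IdHPCs and 0.705 in LMPPs, over 2 pairs each. In LMPPs the small differences by label turned sign, for *Ccl6* from 0.088 to -0.039 with DESeq2, -0.037 with exactTest and -0.021 with the quasi-likelihood test. With 1 library left out they ranged from -0.20 to 0.13 (*Ccl3*), -0.49 to 0.31 (*Ccl4*), -0.68 to 0.25 (*Ccl5*), -0.70 to 0.87 (*Ccl6*) and -0.071 to 0.084 (*Ccl9*). With 1 library in a group, the lone sample is assumed to vary like the others.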
